A study of Mus musculus with 9 samples.

Results

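Nuclear tRNA-Gly fragments are the small RNAs that the authors' annotation assigned to the glycine tRNAs encoded in the nucleus. They were chosen by name: every mature nuclear tRNA species called tRNA-Gly was taken, and mitochondrial tRNA-Gly was left out. The choice named the species with the anticodons GCC, CCC and TCC, and the same rule also found tRNA-Gly-ACC, which was kept. For each anticodon the reads at the 5′ end, at the 3′ end without CCA, at the CCA end, and all remaining reads of that tRNA (the remainder) were counted as separate features. This gave 16 features of 996 in the series, beside 184 features of other nuclear tRNAs. All 16 passed the filter on low counts that kept 520 features for testing.

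Transfer RNAs carry amino acids to the ribosome, and the anticodon pairs with the codon. The CCA tail, to which the amino acid is attached, is added to the 3′ end after transcription and is not in the gene. Nucleases such as angiogenin cut mature tRNAs into shorter RNAs, called tsRNAs, and 5′ fragments of tRNA-Gly are among the abundant ones in many mammalian tissues.

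The libraries came from atrial appendages of C57BL/6 mice, in 3 groups of 3. Young mice were 5 months old and old mice 18 months old, both without curcumin. Curcumin mice were also 18 months old and had been fed 100 mg/kg of the turmeric polyphenol curcumin every day, mixed in non-fat skim milk, from month 12 to month 18. The title concerns curcumin, tsRNAs and susceptibility to atrial fibrillation, and the labels name the milk for the curcumin group only. PANDORA-seq treats RNA with AlkB and T4 polynucleotide kinase before library construction, so that methylated tRNA pieces and pieces with ends that cannot be ligated are read as well. The gel cut kept RNAs of 15 to 45 nucleotides, so a full-length tRNA was outside the range. The design text gives 3 mice per group, and the labels do not say whether a library is 1 mouse, so p-values measure the spread between these libraries.

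Clean reads numbered 12899427 to 19707803 per library, and 83.7% to 87.3% of them fell in features. The muscle precursors looked for (loci of mir-1a, mir-133a, mir-208 and mir-499) had reads at 7 of 7 loci, with a sum of 3767 to 18185 counts per 1000000 clean reads, against 0.837 to 3.92 for the liver precursor looked for. In some ends of tRNA-Gly and of other nuclear tRNAs, the 3 libraries numbered 1 stood apart from the 6 numbered 2 and 3. There was 1 such library in each group, and each comparison is therefore given with and without these libraries. The RNA is from whole tissue, so fewer cells of a type and less RNA per cell cannot be told apart.

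The RefSeq annotation of GRCm38.p6, the assembly of mm10, held 28 tRNA-Gly loci. Of these, 14 had the anticodon GCC and lay on 7 chromosomes, 6 had CCC, 7 had TCC and 1 had ACC. In the GENCODE annotation 19 loci were intergenic, 7 lay in introns, such as those of Vac14, Trim2 and Clec18a, and 2 overlapped a UTR. A cluster at chr1:171037997-171102827 held 9 loci, 5 of TCC and 4 of GCC. One of the UTR loci, n-TGccc7, lies on the plus strand, where the protein-coding gene Mettl26 and the lincRNA Gm26694 are both annotated. Its whole length lies within an annotated exon. The stretch around its anticodon arm is printed from a transcript with that exon because angiogenin is known to cut tRNAs in the anticodon loop. The counts do not say whether the 5′ and 3′ pieces counted here end in that loop. The stretch is chr17:25875107-25875136, bases 20 to 49 of the 71-base locus, and the capitals mark the anticodon at bases 33 to 35, within a loop of 7 bases closed by 5 pairs. Bases on both sides of the arm are included.
n-TGccc7 around the anticodon: atcatgcaagattCCCattcttgcgacccg

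tRNA-Gly made up most of the nuclear tRNA reads in every library. Its share of clean reads was 18.6%, 10.8% and 12.8% in young replicates 1 to 3, 20.9%, 12.3% and 9.51% in old replicates, and 22.5%, 13.2% and 12.7% in curcumin replicates. Replicate 1 was the highest of each group, and the ranges of the 3 groups overlapped. Of the nuclear tRNA reads alone, tRNA-Gly took 87.9% on average (84.5% to 92.7%). It ranked first of 23 amino acid classes, and tRNA-Glu came next with 2.39%.

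Among the anticodons, tRNA-Gly-GCC held 90.2% of the tRNA-Gly reads on average (89.1% to 91.9%), tRNA-Gly-CCC 9.03% (7.64% to 10.2%), tRNA-Gly-TCC 0.760% (0.401% to 1.14%) and tRNA-Gly-ACC 0.0304% (0.00946% to 0.0461%). These ranges did not overlap, so GCC ranked above CCC, CCC above TCC, and TCC above ACC in each of the 9 libraries. The order differed from that of the locus numbers, since TCC has 7 loci and CCC has 6. Per RefSeq locus, the mean share of tRNA-Gly reads was 6.44% for GCC, 1.51% for CCC, 0.109% for TCC and 0.0304% for ACC. Some reads had been divided among annotations, as described below, so the separate shares of the species depend on that division. Among 48 nuclear tRNA species with a mean of at least 100 reads, GCC ranked 1 by reads, CCC 2, TCC 9 and ACC 47.

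**Figure D1:**
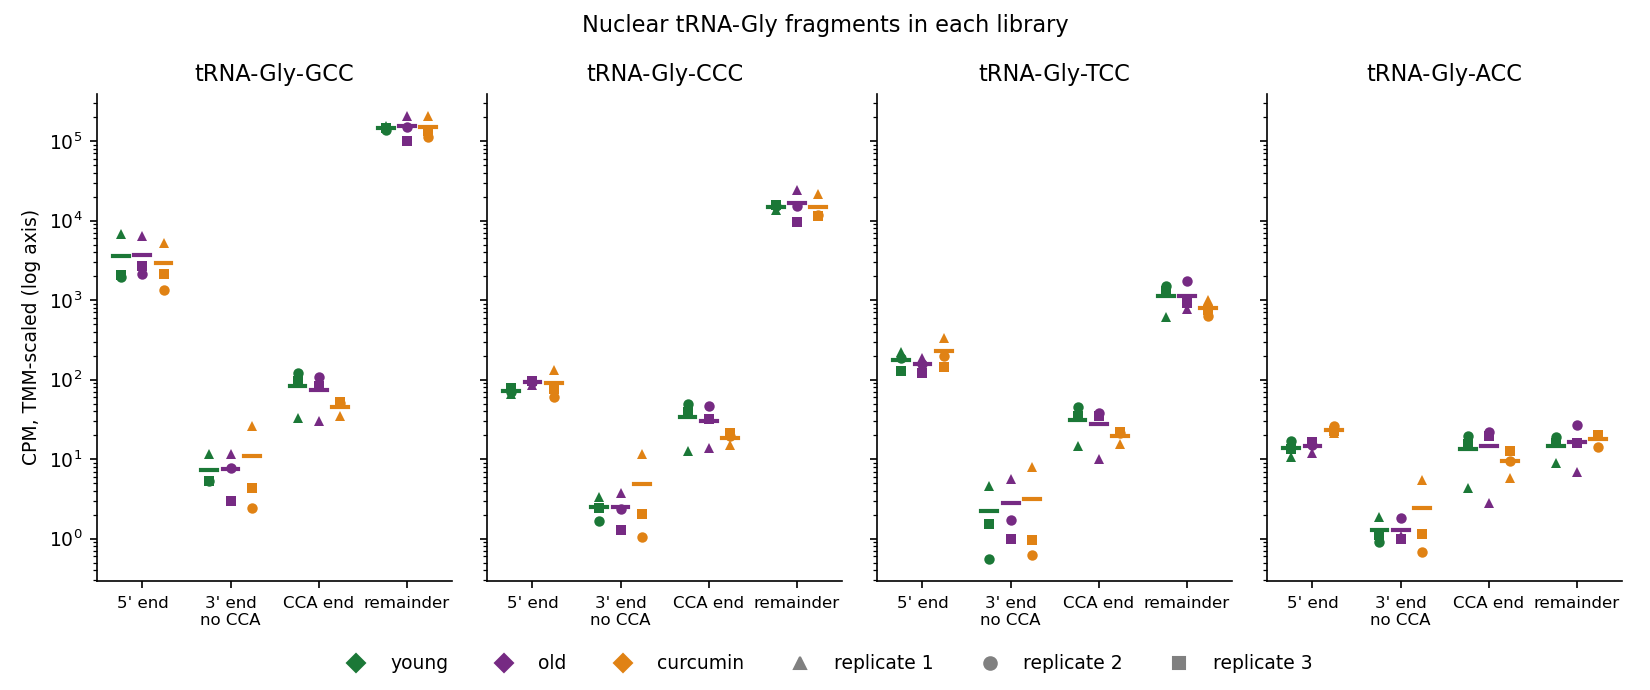
CPM (reads per 1000000 reads in features, TMM-scaled, log axis) of the 16 tRNA-Gly features in each library, 1 panel per anticodon, with colours for groups, symbols for replicate numbers and a short line at each group mean (n = 3). The remainders of GCC and CCC lie above all other tRNA-Gly features, and the triangles of replicate 1 lie below the other symbols at all 4 CCA ends.

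Reads of tRNA-Gly came mostly from the remainder and seldom from the annotated ends, in contrast to the pooled reads of the other nuclear tRNAs. The remainder made up 97.8% of tRNA-Gly reads on average (95.9% to 98.6% over the 9 libraries) and 53.3% of the reads of all other nuclear tRNAs (47.1% to 59.8%). The 5′ end made up 2.11% (1.27% to 4.03%) in tRNA-Gly and 31.1% (26.1% to 35.1%) in the others. For the CCA end the shares were 0.0868% and 14.4%, and for the 3′ end without CCA they were 0.00868% and 1.17%. Each difference had the same direction in 9 of 9 libraries (exact two-sided sign-flip test, p = 0.00391, the smallest that 9 libraries can give, and adjusted p = 0.00391 over the 4 parts). Over the 6 libraries numbered 2 and 3 the remainder was 98.3% against 50.6% and the 5′ end 1.62% against 31.4%, with the same direction in 6 of 6 (exact p = 0.0312). By amino acid class tRNA-Gly had the highest remainder share of 23, but the high share was not confined to it: the remainder took 94.9% of the reads of the rare class named Sup, 90.6% of tRNA-Pro reads and 88.3% of tRNA-His reads, and the 5′ end share of tRNA-Trp, 0.814%, was below that of tRNA-Gly. The files do not say which positions of the tRNA the remainder reads cover.

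**Figure D2:**
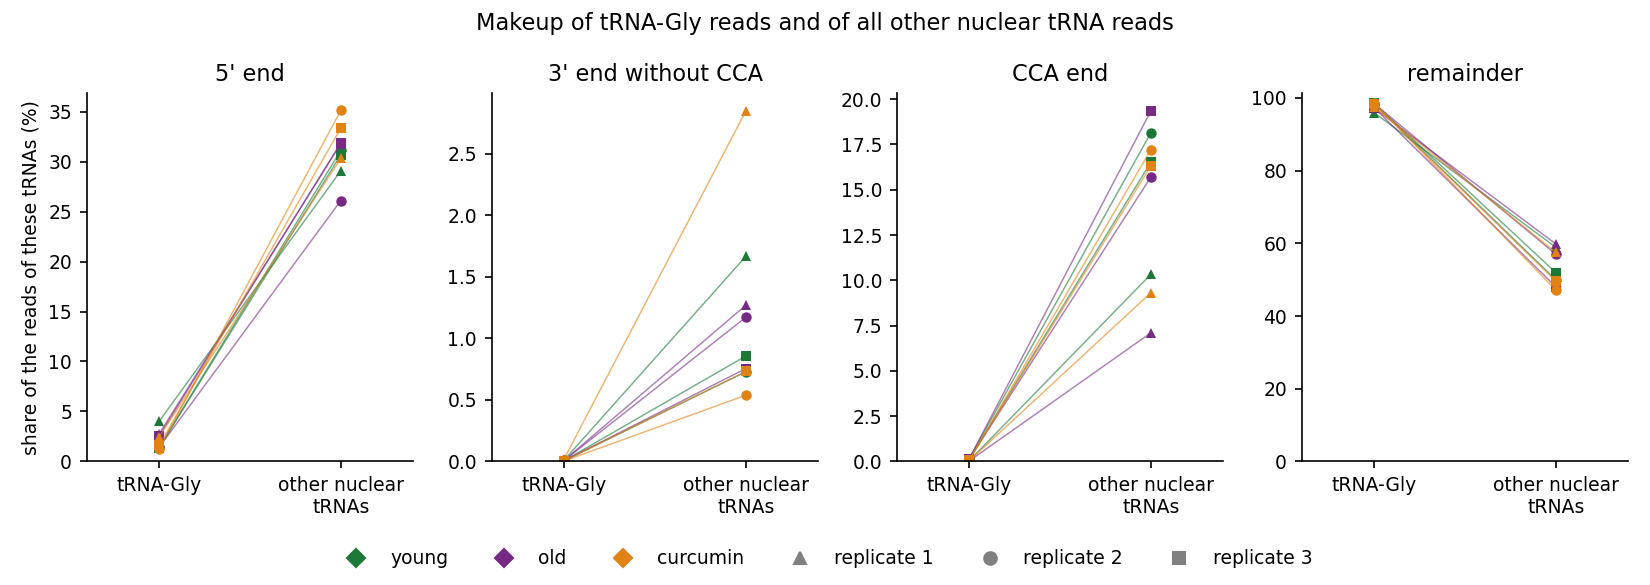
Share of reads (%, linear axes) in the 5′ end, the 3′ end without CCA, the CCA end and the remainder, for tRNA-Gly at left and all other nuclear tRNAs at right, with 1 line per library. Every line falls from right to left for the 3 ends and rises for the remainder.

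The 4 species differed in this makeup. The remainder took 99.2% of tRNA-Gly-CCC reads and 97.8% of tRNA-Gly-GCC reads, which ranked 1 and 2 of the 48 species. It took 81.2% of tRNA-Gly-TCC reads (rank 10) and 34.0% of tRNA-Gly-ACC reads (rank 34). The 5′ end took 0.575% of CCC reads, the lowest of the 48 species, 2.14% of GCC reads (rank 42), 16.4% of TCC reads (rank 21) and 37.7% of ACC reads (rank 16). tRNA-Gly-TCC therefore held 6.07% of the tRNA-Gly reads at the 5′ end, where it ranked above CCC with 2.80%, while in the remainder CCC held 9.16% and TCC 0.644%. Among CCA end reads the species were closer together: GCC held 50.4%, CCC 20.8%, TCC 19.9% and ACC 8.87%.

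The fractions in the deposited counts showed where reads had been divided among annotations. At the 5′ end the counts of GCC, CCC and TCC were whole numbers in 9 of 9 libraries (within 0.03 reads), that is, they held no sign of divided reads. At the 3′ end without CCA and at the CCA end the counts of GCC and of CCC were each whole in 1 of 9 libraries, but their sum was whole in 9 of 9. Reads of these ends had thus been divided between GCC and CCC, and their separate values there are uncertain. The counts of TCC at these ends were whole in 9 of 9, and those of ACC were whole in at most 1 of 9 at every end. Reads of the ACC 5′ end had thus been divided with annotations other than the 5′ ends of GCC, CCC and TCC, and the fractions do not identify them. The remainder counts of GCC, CCC and TCC were whole in 1 of 9 libraries, as were the sum of GCC and CCC and the sum of GCC, CCC and TCC. Remainder reads had thus been divided as well. The sum of all 4 species was whole in 0 of 9, but the fractional ACC ends had been subtracted in it. The fractions therefore do not show whether remainder reads were shared with annotations outside tRNA-Gly. Reads that did not match the genome made up 33.8% to 59.2% of the GCC CCA end, 49.2% to 77.6% of the CCC CCA end, 56.0% to 75.6% of the TCC CCA end and all of the ACC CCA end. They made up at most 0.0152% of the GCC remainder, 0.0795% of the CCC remainder and 1.30% of the TCC remainder, but 31.5% to 56.9% of the ACC remainder, and 0 at the 5′ ends and at the 3′ ends without CCA.

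Across the libraries, the ends of tRNA-Gly-GCC varied more than its remainder: the highest library was 5.11-fold the lowest at the 5′ end, 10.7-fold at the 3′ end without CCA, 3.99-fold at the CCA end and 2.07-fold in the remainder. The 5′ end of tRNA-Gly-GCC, the tsRNA end that ranked 26 of 520 features by mean, was at 6821, 1975 and 2086 CPM in young replicates 1 to 3, at 6391, 2139 and 2698 CPM in old replicates, and at 5255, 1334 and 2152 CPM in curcumin replicates. The libraries numbered 1 were all above the other 6, by 2.98-fold in the mean. The CCA end of GCC went the other way, with 33.2, 121 and 95.8 CPM in young, 30.3, 108 and 83.2 CPM in old, and 34.5, 50.6 and 52.6 CPM in curcumin replicates. Its levels in the libraries numbered 1 were 0.384 times those in the others. Over all members the 3 libraries numbered 1 lay above the 6 others for 5 of 16 features (the GCC 5′ end, the GCC remainder, and the 3′ ends of GCC, CCC and TCC), where 9.62% of all 520 tested features did so. They lay below the others for 4 of 16, which were the 4 CCA ends, where 12.3% of all features did. Other nuclear tRNAs showed the same split in these ends. Their CCA end share was 10.3%, 7.10% and 9.31% in young, old and curcumin replicate 1, and 15.7% to 19.4% in the other libraries. For the 3′ end without CCA it was 1.67%, 1.27% and 2.85% against 0.537% to 1.17%, while their 5′ end share overlapped. Genome-matched reads were 72.2% to 73.7% in libraries numbered 1 and 65.0% to 68.3% in the others. The labels do not say what a replicate number shares. Values without the libraries numbered 1 are given in the comparisons below. Each group holds 1 of them, and leaving them out also leaves 2 libraries per group. Those values therefore do not measure the part of this difference in a comparison.

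CCA ends varied together over the 9 libraries, and so did 3′ ends. Pearson's r of log2 CPM between the 4 CCA ends was 0.91 to 0.99, and between the 4 3′ ends without CCA it was 0.75 to 0.96. Between a 3′ end and a CCA end r was -0.77 to -0.30. Between the 5′ ends r was -0.61 to 0.50. The remainders of GCC and CCC had r = 0.95 with each other and r of -0.30 to 0.17 with those of TCC and ACC. These values are descriptions over libraries that share depth and replicate numbers, and the divided reads of GCC and CCC join their ends by construction.

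Among features outside tRNA-Gly, the pattern of the GCC 5′ end over the 9 libraries was most like that of 3′ ends of mitochondrial tRNAs: His-GTG (r = 0.98), mitochondrial Gly-TCC (r = 0.96) and Lys-TTT (r = 0.95). The GCC 3′ end without CCA was most like the 3′ ends of nuclear Glu-TTC (r = 0.98), mitochondrial Val-TAC (r = 0.95) and nuclear Thr-TGT (r = 0.94). The GCC CCA end was most like the CCA ends of nuclear Glu-CTC (r = 0.98) and Arg-TCG (r = 0.97) and the 5′ end of mitochondrial Lys-TTT (r = 0.96). For the GCC remainder the 3 most alike were the 3′ ends of mitochondrial Pro-TGG (r = 0.92) and Glu-TTC (r = 0.90) and the remainder of nuclear Lys-CTT (r = 0.88). These are the 3 highest r per member among all tested features outside tRNA-Gly, and libraries numbered 1 stood apart in each of these GCC features. Some partners were low: mean CPM was 1.92 at the 3′ end of nuclear Glu-TTC, 2.51 at that of Thr-TGT and 7.88 at that of mitochondrial Lys-TTT.

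The first comparison was of ageing, old against young atria. No tRNA-Gly feature passed the test, an adjusted p under 0.05 in edgeR over all 520 features. For the remainders of GCC and CCC, the most abundant members, the old libraries spread to both sides of the young ones. The GCC remainder, which ranked 4 of 520 features by mean, was at 155333, 136688 and 147328 CPM in young replicates 1 to 3 and at 208612, 149131 and 100643 CPM in old replicates. The young libraries lay within the range of the old ones, and the fitted log2 change was 0.061 (SE 0.31, edgeR adjusted p = 0.999). The CCC remainder was at 13411, 15105 and 15658 CPM in young and 24395, 15194 and 9657 CPM in old replicates, with a log2 change of 0.16 (SE 0.36, edgeR adjusted p = 0.999).

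The 5′ end of tRNA-Gly-CCC was the tRNA-Gly feature with the smallest p of this comparison. It was at 66.9, 69.9 and 78.5 CPM in young and at 86.2, 93.8 and 96.6 CPM in old replicates. All old libraries were above all young ones, with a log2 change of 0.36 (SE 0.34, edgeR unadjusted p = 0.319, adjusted p = 0.999), and the difference within each replicate number was 0.36, 0.42 and 0.30. It was the only 1 of the 16 whose groups did not overlap, where 4.62% of all features had groups that did not. The TCC 5′ end had values of 220, 187 and 130 CPM in young and 185, 159 and 122.4 CPM in old replicates, with overlapping groups and a log2 change of -0.20 (SE 0.36, edgeR adjusted p = 0.999).

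By edgeR's quasi-likelihood test with Benjamini-Hochberg adjustment, 0 of 16 tRNA-Gly features passed in old against young, where the background was 0.0% of 520. At an unadjusted p under 0.05 edgeR gave 0 of 16, against 0.962% of all features, and DESeq2 and limma-voom also called 0 of 16. The log2 change was positive for 9 of 16, where 45.2% of all features were positive, with a median of 0.026 against -0.038 over all. That median had no stable sign, at -0.051 with clean-read totals and -0.047 with nuclear tRNAs fitted alone. Without the libraries numbered 1, which leaves 2 per group, again 0 of 16 passed, against 0.0% of 519 features.

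The second comparison was of curcumin at 18 months, curcumin against old atria, which shares the old libraries with the first. Again no tRNA-Gly feature passed the test over all 9 libraries. The GCC remainder was at 204459, 113492 and 132770 CPM in curcumin replicates 1 to 3, within the range of the old libraries given above. Its log2 change was -0.024 (SE 0.31, edgeR adjusted p = 0.988). The GCC 5′ end was lower in curcumin than in old within each number, by -0.28, -0.68 and -0.33, with a log2 change of -0.36 (SE 0.65, edgeR adjusted p = 0.955).

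The 5′ end of tRNA-Gly-ACC, the rarest species, had the smallest p. It was at 11.8, 15.1 and 16.5 CPM in old and at 21.1, 26.5 and 22.7 CPM in curcumin replicates, so all curcumin libraries were above all old ones. The log2 change was 0.70 (SE 0.34, edgeR unadjusted p = 0.0704, adjusted p = 0.917), with differences of 0.83, 0.81 and 0.46 within the numbers. This was the only 1 of the 16 with groups that did not overlap, against 12.9% of all features. Its deposited counts, 134 to 473 reads per library, were fractional. They include parts of reads shared with unidentified annotations other than the 5′ ends of GCC, CCC and TCC, so the difference may not be of tRNA-Gly-ACC alone. The TCC 5′ end had 338, 197 and 144.96 CPM in curcumin replicates and overlapped the old libraries, with a log2 change of 0.55 (SE 0.36, edgeR adjusted p = 0.917).

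The TCC remainder was at 764, 1722 and 925 CPM in old and at 991, 641 and 753 CPM in curcumin replicates. It was higher in curcumin within number 1 and lower within numbers 2 and 3, and its log2 change was -0.52 (SE 0.40, edgeR adjusted p = 0.917). Without the libraries numbered 1 it fell by 0.92 on the log2 scale (edgeR adjusted p = 0.0226) and was the 1 tRNA-Gly feature of 16 that passed, where 14.1% of 519 features passed in either direction and 7.51% passed lower. The 5′ end took 19.1%, 8.27% and 11.3% of tRNA-Gly-TCC reads in old and 25.0%, 22.9% and 15.7% in curcumin replicates, which overlapped. The difference of the means was 8.31 percentage points, from 12.9 ± 5.61% to 21.2 ± 4.85% (SD, n = 3; exact two-sided permutation p = 0.2, adjusted p = 1).

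**Figure D3:**
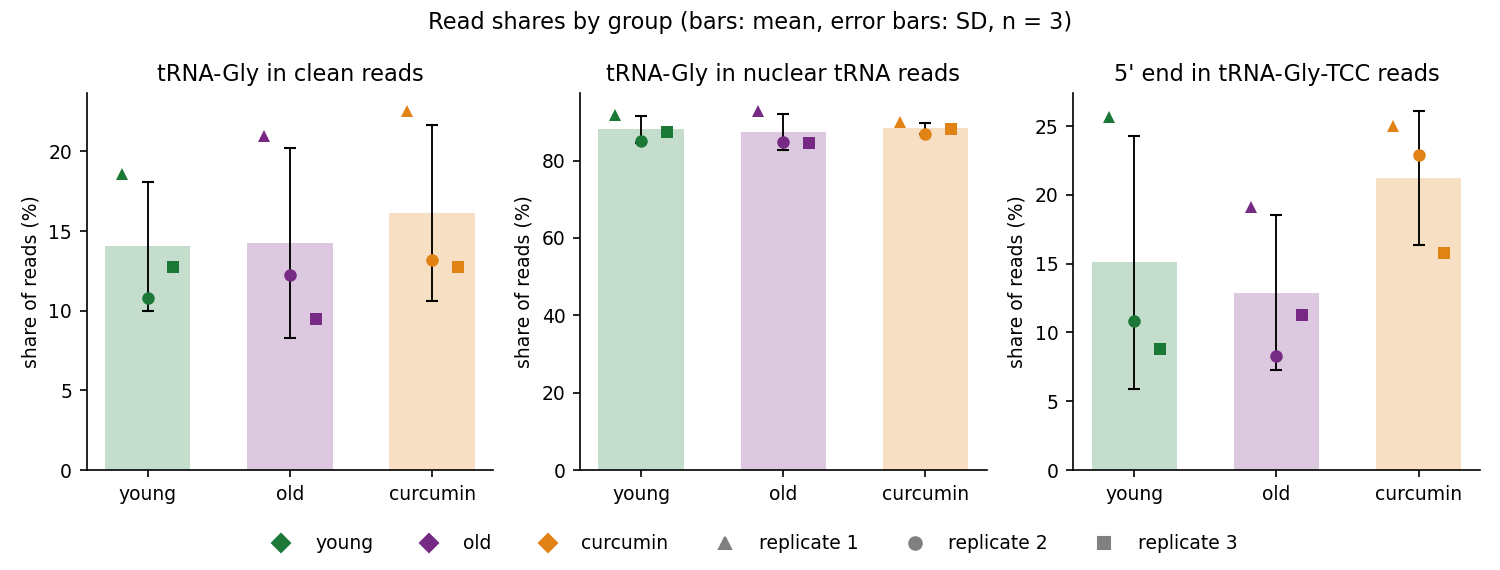
Shares of reads (%) by group, with bars for means, error bars for SD (n = 3) and 1 symbol per library: tRNA-Gly in clean reads, tRNA-Gly in nuclear tRNA reads, and the 5′ end in tRNA-Gly-TCC reads. Replicate 1, drawn as a triangle, is the highest of its group in all 3 panels, and the groups overlap in each.

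Over all members, 0 of 16 passed in curcumin against old (edgeR, background 0.0% of 520), and 0 of 16 had an unadjusted p under 0.05, against 4.04% of all features. DESeq2 and limma-voom called 0 of 16. The log2 change was positive for 7 of 16, where 56.5% of all features were positive, with a median of -0.030 against 0.078 over all. With clean-read totals in place of TMM scaling, the median of all features moved by 0.23 and the tRNA-Gly median became 0.20, with 10 of 16 positive, so the direction for the GCC remainder and for the whole set depended on the scaling. All 4 CCA ends were negative (median -0.67), as were 36 of 45 CCA ends of other nuclear tRNAs (median -0.35). All 4 3′ ends without CCA were positive (median 0.73), as were 27 of 34 others (median 0.47). Differences of the 4 tRNA-Gly 3′ ends were 0.48 to 2.21 within number 1 but -1.59 to -1.06 within number 2. Within number 3 they were -0.041 to 0.60. Summed leukocyte precursors (3 of 3 with reads) were 39.0 to 84.8 counts per 1000000 clean reads in old and 88.9 to 124.1 in curcumin libraries, and summed smooth muscle precursors (2 of 2) were 174 to 553 and 584 to 774. The sums for muscle were 3767 to 11949 in old and 11504 to 18185 in curcumin libraries. Those for endothelium were 3039 to 8519 and 7720 to 9066. These ranges overlapped, as did those for red blood cells, liver and neurons, and each began and ended higher in curcumin. In young libraries, which enter the other comparisons, sums were 5.43 to 257 for red blood cells and 34.6 to 367 for leukocytes. Red blood cell sums were at most 11.2 in old and 22.3 in curcumin libraries. The young ranges overlapped those of old and of curcumin libraries for every list. The part of these cell types and tissues in the tRNA-Gly values was not tested.

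The third comparison, curcumin against young atria, shares its libraries with both others. The CCA ends of GCC and CCC were lower in curcumin libraries 2 and 3 than in young libraries 2 and 3, and passed the test only in the fit without the libraries numbered 1. Over all 9 libraries the ACC 5′ end again had the smallest p. It was at 10.7, 16.96 and 13.6 CPM in young replicates, all below the curcumin libraries given above. Its log2 change was 0.77 (SE 0.35, edgeR unadjusted p = 0.0494, adjusted p = 0.942), and the differences within numbers were 0.98, 0.64 and 0.74. It was the only 1 of the 16 with groups that did not overlap, against 10.4% of all features.

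The CCC CCA end was at 12.6, 50.1 and 39.4 CPM in young and at 15.2, 19.5 and 21.2 CPM in curcumin replicates. The log2 change was -0.87 (SE 0.57, edgeR adjusted p = 0.942) for the CCC CCA end and -0.86 (SE 0.57, edgeR adjusted p = 0.942) for the GCC CCA end. Within number 1 the curcumin library was the higher for both, and within numbers 2 and 3 it was the lower. All 4 CCA ends of tRNA-Gly were negative (median -0.77), as were 36 of 45 CCA ends of other nuclear tRNAs (median -0.28). Without the libraries numbered 1, 3 of 16 features passed, all lower in curcumin: the CCC CCA end fell by 1.13 (adjusted p = 0.0234), the GCC CCA end fell by 1.07 (adjusted p = 0.0229) and the TCC remainder fell by 1.00 (adjusted p = 0.0165). In that fit of edgeR 12.9% of 519 features passed, and 5.78% passed lower. The CCA ends of GCC and CCC share divided reads, so they are not separate evidence. With the same libraries left out, the changes of these CCA ends against old atria were -0.89 for the Gly-GCC CCA end (edgeR adjusted p = 0.0505) and -0.93 for the Gly-CCC CCA end (edgeR adjusted p = 0.0538).

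The GCC remainder had a log2 change of 0.037 in curcumin against young (SE 0.31, edgeR adjusted p = 0.984). Of the 16 members 0 passed (edgeR, background 0.0% of 520), and 1 had an unadjusted p under 0.05, the ACC 5′ end, against 3.65% of all features. DESeq2 and limma-voom called 0 of 16. The log2 change was positive for 10 of 16, where 49.4% of all features were positive, with a median of 0.17 against -0.0089 over all. With clean-read totals the median of all features moved by 0.19 and 10 of 16 members were positive. The tRNA-Gly median was negative with limma-voom (-0.019), genome-matched reads (-0.012), nuclear tRNAs alone (-0.037) and without the libraries numbered 1 (-0.39), and it was -0.53 to 0.26 with 1 library left out, the lowest without curcumin replicate 1.

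**Figure D4:**
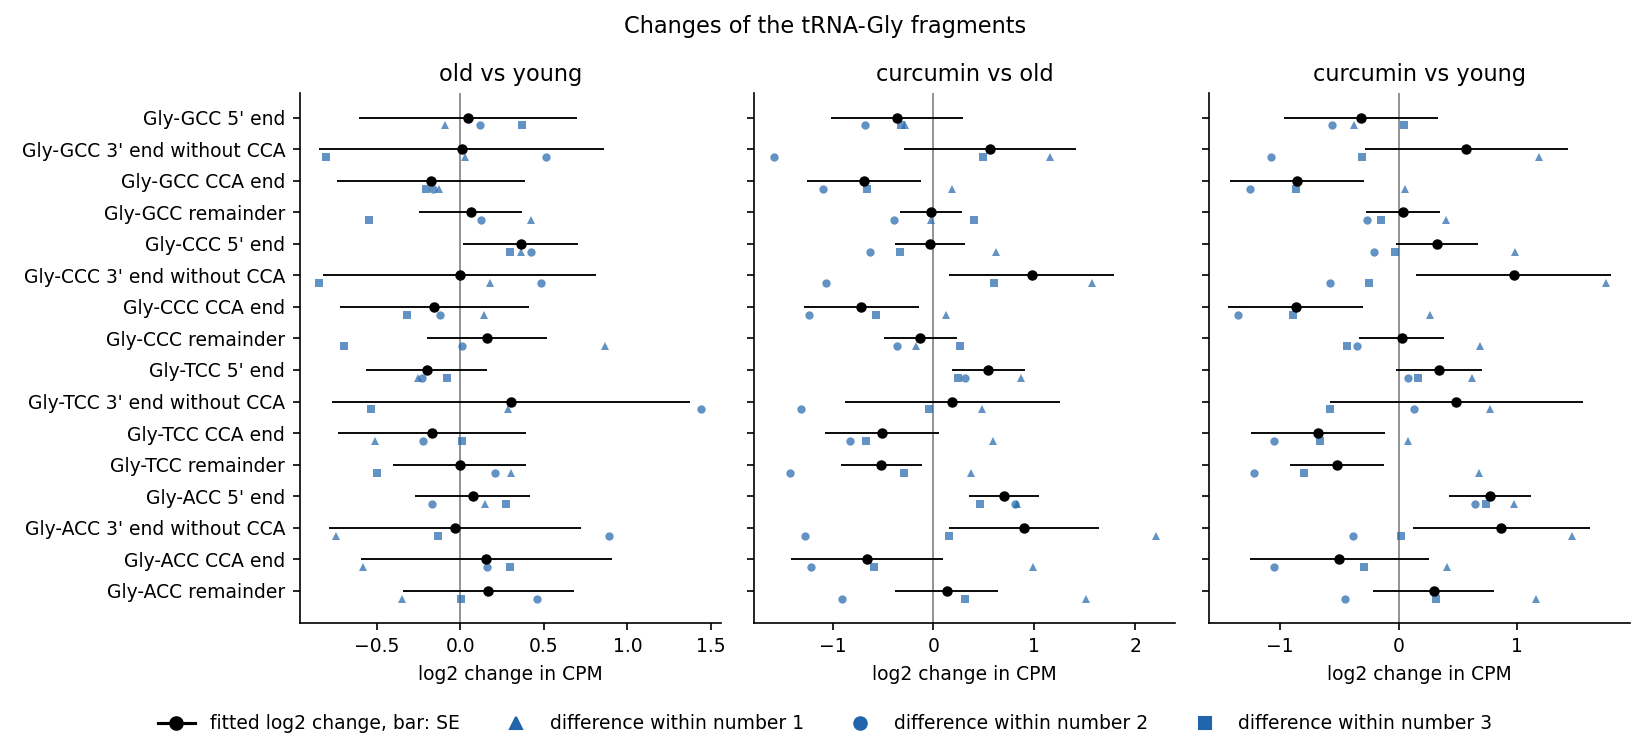
Fitted log2 change in CPM (black points, bars: SE, zero at the grey line) of the 16 tRNA-Gly features in the 3 comparisons, with the differences within replicate numbers 1, 2 and 3 as blue symbols (n = 3 per group). In both comparisons with curcumin the 4 CCA ends lie left of zero in the fit and at numbers 2 and 3, and right of zero at number 1.

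Shares of reads gave no difference that passed. The share of tRNA-Gly in clean reads was 14.0 ± 4.04% in young, 14.2 ± 5.97% in old and 16.1 ± 5.52% in curcumin atria (SD, n = 3). It was higher in curcumin than in old within each number, by 1.56, 0.910 and 3.23 percentage points (exact permutation p = 0.5, exact sign-flip p = 0.25). Its share of nuclear tRNA reads was 88.1 ± 3.48%, 87.3 ± 4.65% and 88.3 ± 1.503%, a difference between group means of under 1 percentage point. Of 26 shares in 3 comparisons, 78 tests in all, 1 had groups that did not overlap: the 5′ end took 0.496%, 0.459% and 0.497% of tRNA-Gly-CCC reads in young and 0.609%, 0.509% and 0.656% in curcumin replicates (exact permutation p = 0.1, adjusted p = 1). With 3 libraries against 3, p cannot go below 0.1, so these tests could not pass the threshold. Counting error is small beside this spread, since the 95% Wilson interval of the share in clean reads reaches at most 0.0199 percentage points to either side and covers counting error only. The 3′ ends without CCA were the least precise members, with 6 to 134 reads per library for TCC.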

How the data were processed

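Small RNA of 9 libraries was measured by PANDORA-seq. The deposited values are expected counts per annotation, which the authors made by dividing reads with several annotations, per the fractions in the files. The submitters' processing notes name cutadapt 2.5 and mm10. How reads were annotated, with which tool, and whether molecular identifiers were used is not given in the sources used here. Genome-matched and unmatched reads were summed, and counts were rounded. One model over the 9 libraries was fitted with edgeR's quasi-likelihood method (version 4.0.16, R 4.3.3, robust, TMM, filterByExpr, no term but group), and p-values were adjusted over 520 features and called under 0.05. CPM use TMM scaling. The fit was tested on simulated data, drawn with a common spread for all features. Of features given a log2 change of 1, 27.3% were called in old against young. In curcumin against old it was 25.4%, and in curcumin against young 19.7%. For a log2 change of 2 it was 88.1%, 88.1% and 80.3% in the same order. A feature that did not pass can therefore still have changed. Shares were tested by exact permutation and exact sign-flip tests (scipy 1.17.1).

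Each member is described, with log2 change and p for the 3 smallest p and the most abundant member of each comparison. Others named with these were chosen after their values were seen. Members, lists and alternatives were chosen with earlier results of these data known. Alternatives were RLE scaling, clean-read totals, DESeq2 1.42.0, limma-voom (limma 3.58.1), other filters (none, and a mean of at least 50 reads), only the 2 groups compared, genome-matched reads, nuclear tRNAs alone, a replicate block, and leaving out libraries. The makeup without the libraries numbered 1 was added after seeing the data. Replicate numbers come from the titles. Same-numbered libraries deviated together in old and young (r = 0.81, 0.62 and 0.27) and in curcumin and young (r = 0.33, 0.19 and 0.28). Number 2 with number 3 did so as well, at 0.54 and 0.38 in old and young and 0.22 and 0.22 in curcumin and young. Number 1 with the other numbers had r of -0.73 to -0.40 and of -0.30 to -0.25. In these comparisons with young the numbers set number 1 apart and did not pair number 2 or 3 more closely throughout. Deviations were taken from group means, so a positive r for a number lowers r with the other numbers by construction. In curcumin and old, old replicates 1 and 3 followed this split. Old replicate 2 did not, with r of 0.02, -0.07 and 0.05 with curcumin replicates 1 to 3. No sequence of tRNA-Gly-GCC, -TCC or -ACC was used here.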

Additional observations from a re-analysis of the deposited data

How the results depend on the processing

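Over 33 results and 498 alternatives, 446 kept their side of the threshold or, for medians, moved by less than the spread between libraries. Of the rest, 47 reversed, 3 passed the threshold that had not, and 2 counts moved. That spread was an SD of 0.758 on the log2 scale, larger than any of the tRNA-Gly medians. The tests of shares could not pass the threshold. The 446 are therefore not a measure of stability. Among the 446 were 19 in which the median of the tRNA-Gly features changed sign. That median ranged with 1 library left out from -0.10 to 0.20 in old against young, from -0.46 to 0.34 in curcumin against old and from -0.53 to 0.26 in curcumin against young. Leaving out the 3 libraries numbered 1 raised the tRNA-Gly features called from 0 to 1 in curcumin against old and from 0 to 3 in curcumin against young. The cause was not tested. With the replicate block 0 tRNA-Gly features were called in each comparison, and the block changed no call. In curcumin and old the numbers did not pair the libraries (r = 0.27, -0.07 and 0.37), and the count of features at an unadjusted p under 0.05 went from 21 to 41 under the block. The small log2 changes of the GCC remainder had no stable direction. In curcumin against old it was 0.20 with clean-read totals, 0.057 with a mean of at least 50 reads, 0.032 with only the 2 groups, and -0.28 to 0.36 with 1 library left out. In old against young it was -0.00043 with limma-voom, -0.18 without the libraries numbered 1, and -0.26 to 0.27 with 1 left out. In curcumin against young it was -0.0078 with limma-voom, -0.012 with genome-matched reads, -0.095 with nuclear tRNAs alone, -0.014 with the replicate block, -0.20 without the libraries numbered 1, and -0.23 to 0.15 with 1 left out. The CCC remainder, old against young, was -0.31 without the libraries numbered 1 and -0.28 to 0.41 with 1 left out. The cause was not tested.

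Differences of shares, in percentage points, reversed without the libraries numbered 1 in old against young for tRNA-Gly in clean reads (-0.886), GCC in tRNA-Gly (0.734), the 5′ end (0.583) and the CCA end (0.00615), and in curcumin against young for the 5′ end (0.0319). With 1 library left out, tRNA-Gly in clean reads ranged from -3.15 to 2.57 in old against young, from -1.28 to 5.25 in curcumin against old and from -1.08 to 4.37 in curcumin against young. Its share of nuclear tRNA reads ranged from -3.49 to 1.08, from -0.435 to 3.68 and from -1.35 to 2.07 in the same order. GCC in tRNA-Gly ranged from -0.883 to 0.505 in old against young and from -0.264 to 1.12 in curcumin against young. The 5′ end ranged from -0.482 to 0.842 and from -0.952 to 0.373 in these comparisons, and the CCA end from -0.0317 to 0.0377 in old against young. With 1 library left out, 0 tRNA-Gly features were called in every case, and the ACC 5′ end stayed positive, from 0.58 to 0.81 against old and from 0.57 to 1.04 against young. The CCA end of ACC could not be fitted with genome-matched reads, where 15 members were tested.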
